A study of Mus musculus with 18 samples.

Results

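Serpins are a superfamily of proteins built on one fold, most of which trap serine or cysteine proteases. All genes whose symbol has the form Serpin, a clade letter from a to i, a number and at most 1 further letter were taken, without regard to their values. The rule found 63 genes among the 52958 gene symbols of the dermal papilla libraries and 62 among the 27933 of the hair follicle stem cell libraries, where Serpina3h was not listed. Clade B, the serpins that stay inside cells, gave 27 members and clade A, mostly secreted, gave 25. The other clades gave 1 each in C, D, G and H, 2 each in F and I, and 3 in E. By annotation type, 61 were protein coding, Serpina3h was a transcribed pseudogene and Serpinb10 a polymorphic pseudogene.

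The series compared mice without and with adrenal corticosterone, and mice without and with the glucocorticoid receptor (GR, encoded by Nr3c1) in dermal cells. RNA was sequenced from sorted dermal papilla cells, the signalling cluster under the hair bulb, and from sorted hair follicle stem cells, the epithelial cells that regrow it. There were 9 groups of 2 libraries. From its title, the series asked whether corticosterone keeps stem cells quiescent through Gas6, a secreted factor.

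In the surgery experiment, wild type C57BL/6 mice had a Sham-operation (called Sham below), an Adrenalectomy (ADX) or, for stem cells only, an Adrenalectomy with corticosterone feeding (ADX+CORT). In the deletion experiment, mice of the strain 129/C57BL/6 received tamoxifen intraperitoneally for 6 days and were either wild type (Control) or Pdgfra-CreER; GR fl/fl (GR KO). Pdgfra-CreER acts in Pdgfra-expressing mesenchymal cells, so a change in GR KO stem cells was measured in cells that the Cre driver is not directed at. Controls carried no Cre but did receive tamoxifen. Every sample was labelled Female, no age was given, and nothing stated whether the 2 libraries of a group came from separate animals, so p-values measure only the spread between these libraries.

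An inhibitory serpin offers a loop as bait, is cut by the protease and locks it in a covalent complex, so each molecule works once. In skin, members restrain the proteases of plasminogen activation, clotting, complement, granules and desquamation. Others have lost inhibition: Serpinh1 (HSP47) is a chaperone that collagen needs to fold, Serpina6 carries corticosteroids in blood, and Serpinb5 (maspin) is an epithelial protein. Many members stand in tandem clusters, here 24 clade A genes on chromosome 12, 15 clade B genes on chromosome 13 and 12 clade B genes on chromosome 1.

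Promoter sequences were found in RefSeq (GRCm38.p6) for 53 of the members, in 62 windows of 300 bases. Shown are the 250 bases before the RefSeq start of 4 members that passed a test below and whose upstream bases lie outside annotated exons, 5′ to 3′ on the sense strand. Capitals mark AGAACA, the hexamer bound by 1 GR subunit, on either strand, or TATAAA. Serpinb10 (chr1:107528753-107529002, plus strand) and Serpinb2 (chr1:107511173-107511422, plus strand) are neighbours, and the start of Serpinb10 lies inside the Serpinb2 gene. Serpinb9 is at chr13:33004291-33004540 and Serpina3n at chr12:104406458-104406707, both on the plus strand.
Serpinb10: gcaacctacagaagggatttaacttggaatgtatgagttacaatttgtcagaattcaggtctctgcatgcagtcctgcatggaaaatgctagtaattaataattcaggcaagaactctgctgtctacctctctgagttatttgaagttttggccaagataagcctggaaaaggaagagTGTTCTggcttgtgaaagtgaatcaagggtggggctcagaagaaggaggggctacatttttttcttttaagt
Serpinb2: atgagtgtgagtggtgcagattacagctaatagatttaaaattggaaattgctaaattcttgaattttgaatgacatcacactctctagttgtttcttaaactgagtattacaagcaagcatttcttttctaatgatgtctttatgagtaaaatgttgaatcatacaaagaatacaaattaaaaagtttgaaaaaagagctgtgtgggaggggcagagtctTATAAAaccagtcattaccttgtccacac
Serpinb9: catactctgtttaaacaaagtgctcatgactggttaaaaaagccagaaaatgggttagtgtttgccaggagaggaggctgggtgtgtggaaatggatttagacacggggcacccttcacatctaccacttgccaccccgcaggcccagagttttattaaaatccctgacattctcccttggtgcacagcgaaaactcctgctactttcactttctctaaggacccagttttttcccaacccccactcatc
Serpina3n: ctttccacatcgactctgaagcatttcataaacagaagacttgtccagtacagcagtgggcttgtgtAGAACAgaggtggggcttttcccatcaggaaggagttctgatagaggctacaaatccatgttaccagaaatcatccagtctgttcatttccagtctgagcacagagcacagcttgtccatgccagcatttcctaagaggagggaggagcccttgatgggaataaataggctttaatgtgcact
The Serpinb10 window held AGAACA on the minus strand, starting 72 bases before the start, and the Serpina3n window held it on the plus strand, 183 bases before. The Serpinb2 window held TATAAA 29 bases before its start, and the Serpinb9 window held none of these motifs. Counted on both strands of the 250 bases before each start, AGAACA lay in 21 of 62 serpin windows (33.9%) and in 16.1% of all 32851 windows. TATAAA lay in 17 of 62 (27.4%) against 12.4%. The full 15-base GR element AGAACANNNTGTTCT lay in 0 of 62 serpin windows and in 3 windows overall. Duplicated genes share sequence, so the windows are not independent, and a match is not a binding site.

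Depth was 6194415 to 13941628 counts per dermal papilla library and 14067139 to 33014976 per stem cell library. The targeted gene followed the labels in dermal papilla cells: Nr3c1 stood at 671 and 978 CPM (counts scaled for library size) in Control and at 137 and 111 in GR KO. In stem cells it was 257 and 338 in Control and 243 and 170 in GR KO. Dermal papilla markers summed to 4685 to 9883 CPM in the papilla libraries and stem cell markers to 29736 to 64621 CPM in the stem cell libraries. The papilla libraries also held epidermal, immune and muscle transcripts in uneven amounts, and summed levels of several such lists are given below. Skeletal muscle markers summed to 557 CPM in GR KO library 1 and to 21.4 to 86.8 CPM in the other papilla libraries. Of these 12, 11 were higher in GR KO than in Control, with 0 called by edgeR. The 4 stem cell libraries of the deletion experiment went against the label Female: they held 694 to 1252 reads of the Y-linked gene Eif2s3y and 0 to 3 of Xist, while the 6 surgery libraries held 0 and 2096 to 3588. Their immune markers summed to 3805 to 4782 CPM, against 101 to 272 in the surgery libraries. Control and GR KO shared both features, but the surgery and deletion experiments in stem cells differed in them, as well as in strain, and these cannot be told apart.

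A different set of serpins dominated in each cell type. In dermal papilla cells, 4 genes outside clades A and B, Serpinf1, Serpinh1, Serping1 and Serpine2, made up 86.2% to 93.5% of all serpin transcripts per library on the TPM scale (which also allows for gene length). In stem cells these 4 made up 6.68% to 17.1%, and the clade B cluster of chromosome 1 made up 63.2% to 76.7%, of which Serpinb5 alone gave 28.0% to 47.2% of the total. Both cell types were counted by different methods, so their levels were not tested against each other.

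**Figure D1:**
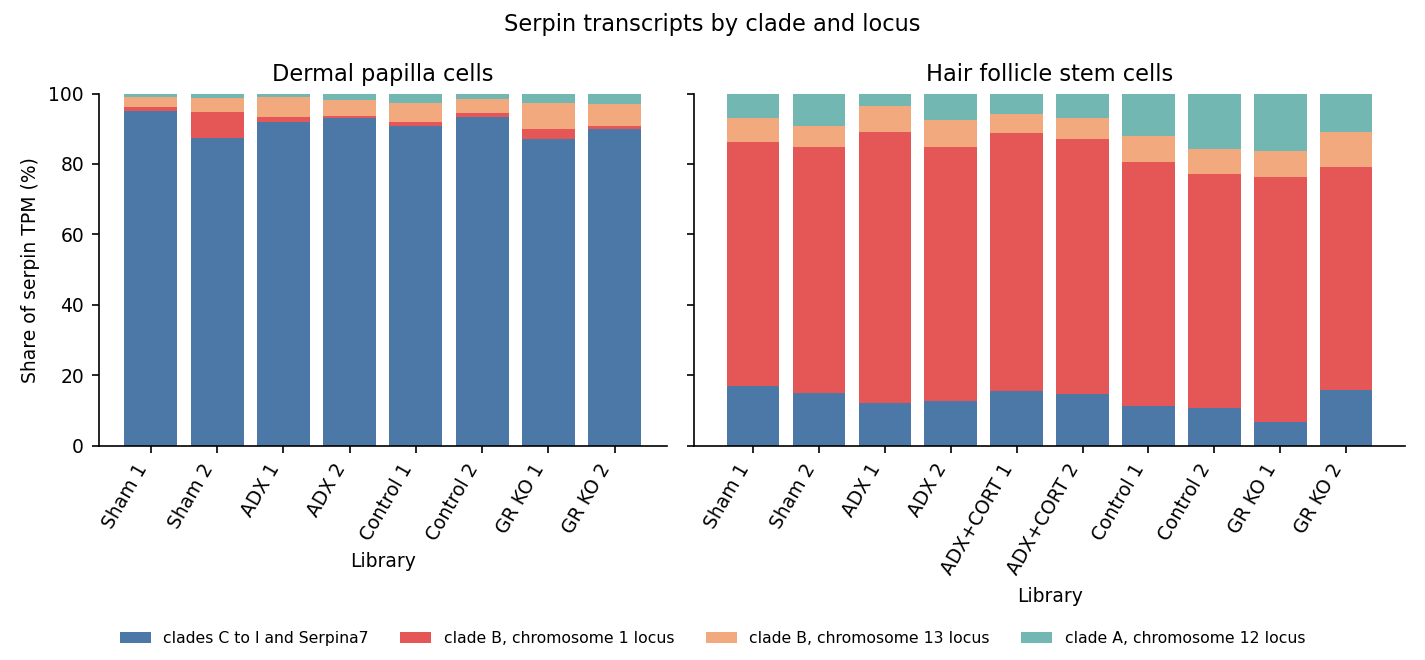
Share of summed serpin TPM (y axis, percent) taken by 4 clade and locus classes in each library (x axis), dermal papilla cells on the left and hair follicle stem cells on the right. Clades C to I and Serpina7 held 87.2% to 95.0% in dermal papilla libraries, and the chromosome 1 cluster of clade B held 63.2% to 76.7% in stem cell libraries.

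Serpins were 0.294% to 0.695% of all TPM in dermal papilla libraries and 0.150% to 0.259% in stem cell libraries. Of the 63 listed in papilla cells, 41 passed the filter on low counts, 27 reached a mean of 5 CPM in at least 1 group, and Serpinb3d and Serpinb9f had no read. In stem cells, 32 of 62 passed the filter, 23 reached 5 CPM and 12 had no read, among them Serpina1a to Serpina1f. Stem cell reads were counted at a minimum mapping quality of 30, so reads that match several gene copies may be missing. Below 5 CPM on average, single libraries went up to 7.06 CPM in papilla cells (Serpina6 in GR KO library 1) and up to 3.88 CPM in stem cells (Serpina3f). Serpina6, which encodes corticosteroid-binding globulin, had 87 and 17 reads in GR KO and 0 to 3 reads in each of the other 6 papilla libraries.

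The 4 leading papilla serpins differed from one another in how they varied across groups. Serpinf1 encodes pigment epithelium-derived factor, a secreted protein that limits vessel growth. Its levels were 1264 and 1134 CPM in Sham, 633 and 907 in ADX, 1023 and 1178 in Control, and 1844 and 1940.45 in GR KO. The GR KO libraries were thus the highest of the 8 and the ADX libraries the lowest, with no overlap within either experiment. Serping1 encodes C1 inhibitor, which blocks the starting proteases of complement. Its GR KO libraries were likewise the highest and its ADX libraries the lowest, with 795 and 766 CPM in Sham, 313 and 378 in ADX, 1091 and 696 in Control, and 1459.9 and 1734 in GR KO.

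Serpinh1, the collagen chaperone, was at 1844 and 1431 CPM in Sham, 1270.45 and 1007 in ADX, 748 and 627 in Control, and 1334 and 1046 in GR KO. Here the Control libraries were the lowest. Serpine2 encodes protease nexin 1, a cell-surface inhibitor of thrombin and plasminogen activators and a gene known from dermal papilla cells. Its levels were 1357 and 664 CPM in Sham, 278 and 508 in ADX, 1129 and 1255 in Control, and 477 and 299 in GR KO. It was the only one of the 4 to stand lower than its comparison group in both ADX and GR KO, and both pairs of libraries were separate from their controls. The 20 dermal papilla markers summed to 9434 and 5420 CPM in Sham and 4685 and 8802 in ADX. In the deletion experiment they summed to 6190 and 9883 CPM in Control and 4725 and 5055 in GR KO. Of these 20, 9 were higher in ADX and 10 in GR KO, and their part in the Serpine2 levels was not tested. By median TPM over the 8 libraries Serpinf1 led with 1821 TPM, followed by Serpinh1 (829), Serpine2 (741) and Serping1 (734). The last 3 overlapped across libraries. With the length of the longest transcript in place of the weighted length, the medians were 1265 TPM for Serpinf1, 1055 for Serpinh1, 1012 for Serping1 and 387 for Serpine2, so the order of the last 2 turned.

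**Figure D2:**
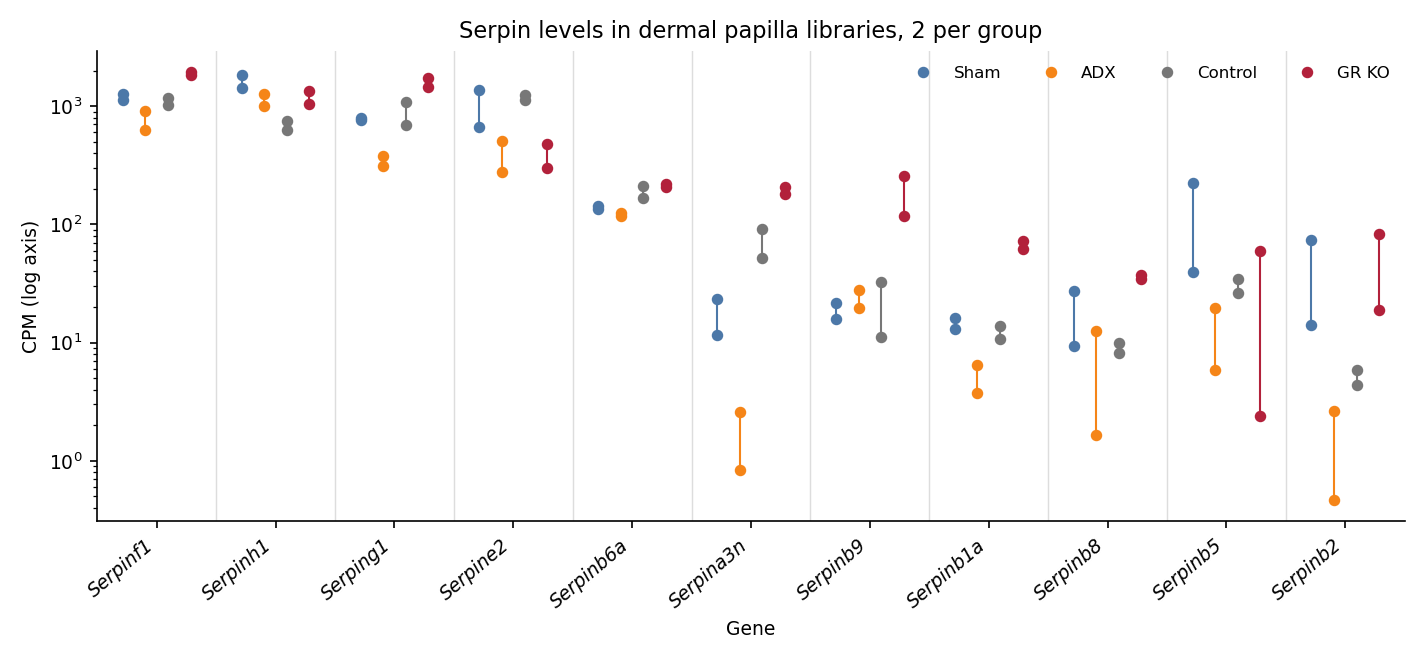
Levels of 11 serpins (x axis) in each dermal papilla library (y axis, CPM on a log axis), with 1 point per library and a line joining the 2 libraries of a group. The 4 genes on the left stood at 278 CPM or more in every library, while Serpina3n ran from 0.834 CPM in ADX library 1 to 209 CPM in GR KO library 2.

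The share of the leading transcript model differed among these genes. The main Serpinf1 transcript held 40.6% to 45.04% of its counts over the 8 libraries. The main Serping1 transcript held 94.7% to 97.7% of its counts and the main Serpinh1 transcript 80.3% to 84.7%. For Serpine2 the main transcript held 60.5% to 68.9% in Sham, ADX and Control but 47.7% and 54.1% in GR KO, where a shorter model of 822 bases took 27.9% and 24.7%. That shift in the estimated shares was not tested.

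After GR deletion, dermal papilla cells had more Serpinb1a and Serpinb9, 2 intracellular inhibitors of granule proteases that lie close together on chromosome 13. Serpinb1a (chr13:32842092-32851185, GRCm38, minus strand) inhibits neutrophil elastase and related proteases. It stood at 13.9 and 10.7 CPM in Control and at 62.0 and 72.5 in GR KO (log2 fold change 2.45, SE 0.40, edgeR quasi-likelihood test, adjusted p = 0.0311). Serpinb9 (chr13:33003250-33017957, plus strand) is the inhibitor of granzyme B. It stood at 32.9 and 11.1 CPM in Control and at 256 and 119 in GR KO (log2 fold change 3.09, SE 0.55, edgeR adjusted p = 0.0359). In both genes the GR KO libraries lay above all 6 others.

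These 2 were the only serpins of 41 tested to pass at an adjusted p of 0.05, both upward, where 0.767% of all 23463 genes rose and 1.54% were called in either direction. Of all these calls 49.9% were upward, and 35.2% with median-of-ratios scaling, under which both serpins also passed. DESeq2 called 7 serpins (Serpina12, Serpina3n, Serpinb1a, Serpinb2, Serpinb9, Serpinb9b and Serpine2), and a fit of only these groups called 1, Serpinb1a. At an unadjusted p under 0.05 there were 15 serpins, where the share of all genes was 15.2%. Of the 41 tested, 16 had both GR KO libraries above both Control libraries, where 31.6% of all genes did, and 4 had both below, where 20% did. The median log2 fold change of the 41 tested was 0.26, against 0.17 for all genes.

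The calls rested on few libraries. The Serpinb1a call was lost when any single library of either group was left out, with log2 fold changes of 2.09 to 2.56. Without Control library 2 its edgeR adjusted p was 0.32. The Serpinb9 call was lost without Control library 2 (adjusted p = 0.209) or GR KO library 1 (0.0886), and the log2 fold change was then 2.34 and 2.42. GR KO library 1 held 3861 CPM of summed immune markers (18 genes) and library 2 held 66 CPM, less than any of the other 7 papilla libraries (317 to 568 in Sham, ADX and Control), with Cd3e and Cd3g at 0. Serpinb9 stood at 119 CPM and Serpinb1a at 72.5 CPM in that library 2. The summed dermal fibroblast markers were 79354 and 90112 CPM in GR KO against 29524 and 18745 in Control. Differentiated epidermis markers summed to 1053 and 82 CPM in GR KO against 2270 and 1270 in Control. Of 18 such markers tested, 3 were higher in GR KO, and edgeR called 2, both lower. The part of either list in the serpin levels was not tested. In such bulk samples more cells of a type and more RNA per cell cannot be told apart.

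Several further serpins stood apart from Control without passing the adjusted threshold. Serpinb9b, a close relative of Serpinb9 in the same cluster, had 0.394 and 0 CPM in Control and 27.9 and 5.07 in GR KO (log2 fold change 6.25, SE 1.48, edgeR adjusted p = 0.0713). Reads of near-identical copies in this cluster cannot be assigned with certainty. Serpine2, described above, was lower in both GR KO libraries than in both Control libraries (log2 fold change -1.62, SE 0.42, edgeR adjusted p = 0.096). In a fit of protein-coding genes only its value was -1.83 (edgeR adjusted p = 0.0449), and 3 serpins were then called. Serpinb6b, a clade B member of chromosome 13, had 6.86 and 2.70 CPM in Control and 41.8 and 13.5 in GR KO, beside 0.0871 and 1.93 in Sham and 5.28 and 1.76 in ADX.

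Serpina3n encodes a secreted acute-phase inhibitor that responds to glucocorticoids in other tissues. It stood at 91.2 and 51.8 CPM in Control and at 182 and 209 in GR KO (log2 fold change 1.45, SE 0.46, edgeR adjusted p = 0.156). Serpinb2, plasminogen activator inhibitor 2, stood at 5.91 and 4.37 CPM in Control and at 83.2 and 19.02 in GR KO (3.31, SE 0.95, adjusted p = 0.12). For Serping1 and Serpinf1 the log2 fold changes were 0.84 (SE 0.30, edgeR adjusted p = 0.207) and 0.78 (SE 0.28, adjusted p = 0.213). Serpinh1 gave 0.79 (SE 0.29, adjusted p = 0.22) and Serpinb8, an epithelial clade B member at 9.93 and 8.18 CPM in Control and 34.4 and 37.1 in GR KO, gave 1.98 (SE 0.80, adjusted p = 0.269). Of these 8 genes with full statistics, 7, all but Serpine2, were higher in both GR KO libraries than in both Control libraries, none of them past the test. The 8 were chosen by small p-values or with their values known, so this count does not describe the family.

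After adrenalectomy, no serpin passed in dermal papilla cells (0 of 41 by edgeR), where 0.017% of all genes were called. At an unadjusted p under 0.05 there were 8, where 11.7% of all genes were, and DESeq2 called 3, Serpina3n, Serpinb2 and Serping1, all lower in ADX. Of the 41 tested, 14 had both ADX libraries below both Sham libraries, against 19.4% of all genes. Both were above in 5, among them Serpini1, against 23.9% of all genes. Serpini1 encodes neuroserpin, an inhibitor of tissue plasminogen activator, and stood at 4.79 and 6.76 CPM in Sham and 13.6 and 8.32 in ADX. The median log2 fold change of the 41 tested was -0.40, against 0.08 for all genes.

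Serpina3n was at 11.7 and 23.5 CPM in Sham and at 0.834 and 2.58 in ADX (log2 fold change -3.33, SE 0.55, edgeR adjusted p = 0.139). On the levels given above, Serping1 gave -1.17 (SE 0.30, edgeR adjusted p = 0.24) and Serpine2 gave -1.36 (SE 0.42, adjusted p = 0.292). Serpinb1a stood at 12.98 and 16.02 CPM in Sham and at 6.53 and 3.75 in ADX (-1.50, SE 0.40, edgeR adjusted p = 0.25). In all 4 genes every ADX library lay below every Sham library. Smooth muscle and pericyte markers differed in the other direction, with sums of 219.7 and 386 CPM in Sham and 6329.8 and 1031 in ADX, beside 10154 and 2351 in Control and 7791 and 3564 in GR KO. Of these 10 markers, none of them at 0 in any papilla library, 9 were higher in ADX (median log2 fold change 3.74, 0 called by edgeR and 8 at an unadjusted p under 0.05), and their part in the serpin levels was not tested.

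Serpinb2 and Serpinb5 also had larger fold changes, and in both 1 Sham library stood far above the other. Serpinb2 stood at 14.0 and 73.5 CPM in Sham and 2.64 and 0.469 in ADX (log2 fold change -4.84, SE 1.06, edgeR adjusted p = 0.192). Serpinb5 stood at 39.6 and 224 CPM in Sham and 19.7 and 5.86 in ADX (-3.37, SE 1.23, adjusted p = 0.34). That library was Sham library 2 in both cases.

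It also held the most epidermal RNA of the 8. Its 20 markers of differentiated epidermis summed to 6827 CPM, with 3 of them at 0, against 1919 in Sham library 1, 798 and 409 in ADX, 2270.12 and 1270.03 in Control and 1053 and 82 in GR KO. Serpinb7, an epidermal serpin, was also highest there, with 49.3 CPM in Sham library 2 and 0.0793 to 12.6 CPM in the other 7 libraries. So were Serpinb3b (14.0 against 0 to 4.22) and Serpinb12 (12.3 against 0.159 to 2.60), both known from keratinocytes. Serpinb5, Serpinb3b and Serpinb12 were at 2.38, 0 and 0.159 CPM in GR KO library 2, where those markers were lowest. None of these serpins followed the order of the marker sums throughout. The highest Serpinb2 level, 83.2 CPM, was in GR KO library 1. In Control library 1, with 2270.12 CPM of markers, Serpinb5, Serpinb7, Serpinb3b and Serpinb12 stood at 34.7, 1.89, 0.709 and 0.473 CPM. They were higher in GR KO library 1, with 1053 CPM of markers, at 59.99, 5.93, 4.22 and 2.60 CPM. Without Sham library 2 the log2 fold changes against Sham were -1.66 for Serpinb5 and -3.22 for Serpinb2, and the part of the epidermal RNA was not tested further.

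**Figure D3:**
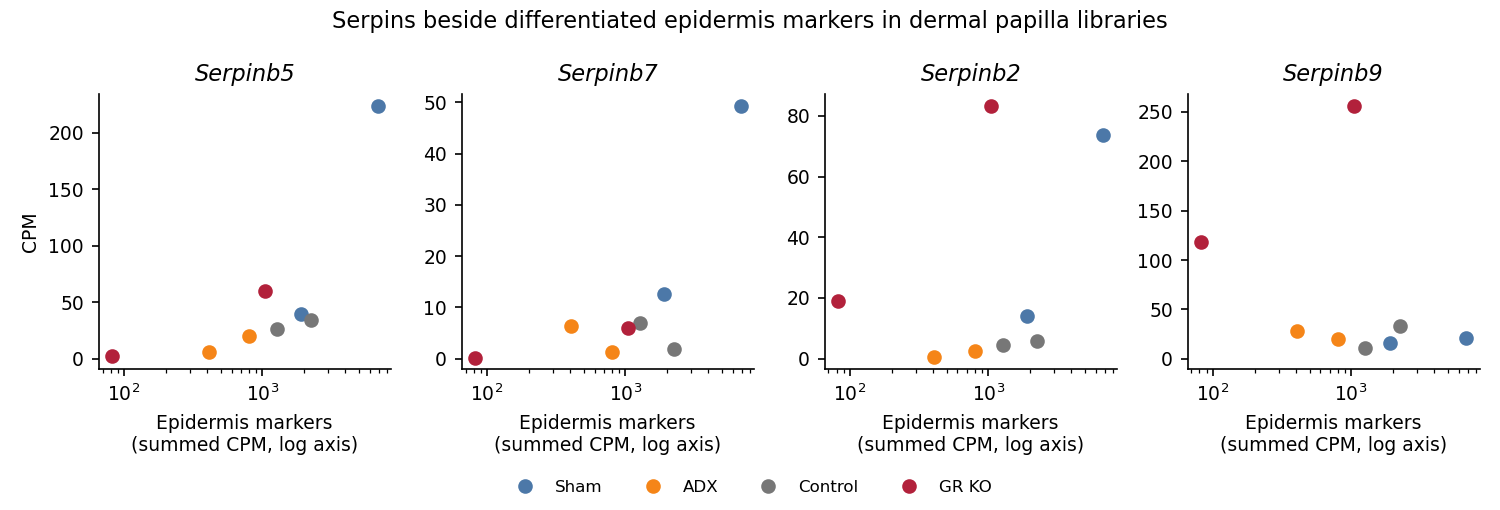
Levels of 4 serpins (y axis, CPM) against the summed CPM of 20 differentiated epidermis markers (x axis, log axis) in the 8 dermal papilla libraries, 1 point each. Serpinb5 and Serpinb7 peak in Sham library 2, at 224 and 49.3 CPM, beside 6827 CPM of markers, whereas the highest Serpinb9 levels, 256 and 119 CPM, are in the GR KO libraries with 1053 and 82 CPM.

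Other papilla serpins showed no common order. Serpinb6a, a broadly expressed intracellular inhibitor, stayed between 118 and 142 CPM in the surgery libraries and between 167 and 219 in the deletion libraries. It shares 762 exonic bases with Nqo2 on the opposite strand, and these libraries do not mark strand. Serpinc1, antithrombin, was at 17.9 to 33.6 CPM in the surgery libraries and 3.08 to 5.79 in the deletion libraries, a gap between experiments that differ in strain. It overlaps 2942 exonic bases of Zbtb37 on the opposite strand, so these reads may belong to either gene. The remaining members above 5 CPM ranged from 0 to 35.2 CPM.

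Most of these remaining members belong to the Serpina3 cluster, whose copies are alike. Serpina3b was at 14.8 and 0.886 CPM in Sham, 16.4 and 1.17 in ADX, 26.2 and 5.76 in Control, and 12.7 and 0.159 in GR KO. Serpina3c was at 0.348 and 11.03 CPM in Sham, 2.64 and 2.23 in ADX, 12.5 and 4.09 in Control, and 10.1 and 32.0 in GR KO. Serpina3g had 16.7 and 14.8 CPM in Sham, 3.75 and 35.2 in ADX, 9.46 and 8.18 in Control, and 9.82 and 6.42 in GR KO. In all 3 genes the groups overlapped within each experiment. Serpina3i had 3.83 and 3.14 CPM in Sham, 1.67 and 11.6 in ADX, 3.86 and 3.997 in Control, and 3.17 and 2.30 in GR KO. Serpina3j had 12.7 and 0.0805 CPM in Sham, 7.23 and 3.28 in ADX, 2.76 and 0.465 in Control, and 3.90 and 0 in GR KO. For the pseudogene Serpina3h the levels were 2.96 and 5.96 CPM in Sham, 1.39 and 0 in ADX, 3.78 and 5.21 in Control, and 5.52 and 5.07 in GR KO. Outside that cluster, Serpina10 inhibits clotting factor X with protein Z and reached 10.9 CPM in GR KO library 2, against 0.837 to 2.496 CPM in the other 7 libraries. Serpina12 was at 3.48 and 13.4 CPM in Sham, 1.53 and 6.68 in ADX, 3.07 and 6.51 in Control, and 0.649 and 0 in GR KO.

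The effects of GR deletion and adrenalectomy in papilla cells were then set against each other. For 3 serpins the difference of both log2 fold changes passed the edgeR test, all with a higher value in GR KO: Serpinb1a with 3.95 (SE 0.57, adjusted p = 0.0312), Serpina3n with 4.78 (SE 0.71, adjusted p = 0.0342) and Serpinb2 with 8.15 (SE 1.42, adjusted p = 0.0456). Of all genes, 0.477% passed this test and 0.349% did so upward. Median-of-ratios scaling lowered the median of all genes in this difference by 0.17, took the upward share of all calls from 73.2% to 50.5%, and left 2 serpins called, with Serpinb2 at 7.96 (edgeR adjusted p = 0.055). Each of the 3 was below Sham in ADX and above Control in GR KO in every library. For Serping1 the difference was 2.01 (SE 0.42, edgeR adjusted p = 0.0651), and 12 serpins had an unadjusted p under 0.05, where 15.3% of all genes did. Without Sham library 2, or without Control library 2, 0 serpins passed, and without ADX library 2 or Control library 1 the test called Serpina3n alone. DESeq2 called 7 for this difference. Both experiments had their own controls and differed in strain and tamoxifen, so the difference is not one of corticosterone against its receptor alone.

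**Figure D4:**
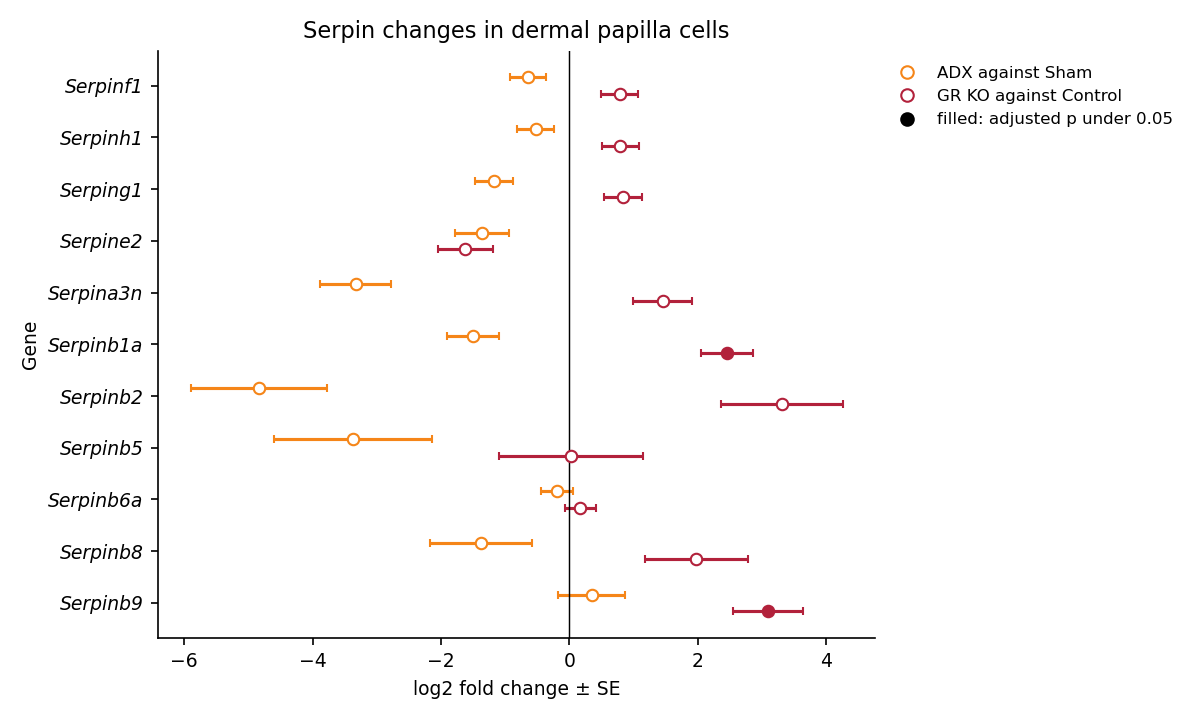
Log2 fold change with its standard error (x axis) of 11 serpins (y axis) in dermal papilla cells, for ADX against Sham and GR KO against Control, from 2 libraries per group. Filled points mark an adjusted p under 0.05, which Serpinb1a (2.45) and Serpinb9 (3.09) reached in GR KO, and Serpine2 lies below 0 in both comparisons (-1.36 and -1.62).

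The partners of the papilla serpins were read from lists of known proteases, targets and clients. After GR deletion, where 0.767% of all genes rose, 5 of 11 fibrillar collagens, the clients of Serpinh1, did so (median log2 fold change 1.88, all genes 0.17). They were Col1a2, Col3a1, Col5a1, Col5a2 and Col11a1. Col3a1 went from 5506 ± 2367 to 23885 ± 1875 CPM (SD, n = 2 each, log2 fold change 2.12, edgeR adjusted p = 0.0385). Of 27 other genes of collagen folding and export, 4 rose (median 0.97), namely Fkbp14, P4ha2, Sec23a and Sec24d. All 14 dermal fibroblast markers were measured, 12 of them were higher in GR KO and 4 rose, among them Col1a2 and Col3a1, which both lists hold. Pathway calls over all 7 lists were 20 genes, 18 of them upward, and fell to 1 gene (Cst6) without Control library 2, to 9 without Control library 1 or GR KO library 1, and to 5 in a fit of only these groups, while DESeq2 called 41. For Col3a1 the log2 fold change without Control library 2 was 1.55 (edgeR adjusted p = 0.251).

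Among 19 complement genes, 2 rose and 0 fell (median 1.90), where 0.767% of all genes rose. Immune markers differed in the same direction, with all 16 tested higher in GR KO (median 2.03, 0 called by edgeR and 1 at an unadjusted p under 0.05) and the uneven sums given above, 3861 and 66 CPM. Complement C3 was also uneven, at 59.1 ± 54.7 CPM in Control and 1109.8 ± 1171 in GR KO (SD, n = 2), and the part of immune RNA in this list was not tested. Cfb, factor B of the alternative pathway, went from 15.9 ± 1.5 to 213 ± 25 CPM (SD, n = 2, log2 fold change 3.73, edgeR adjusted p = 0.0212), and Cd55, a membrane regulator, gave 2.27 (adjusted p = 0.0256). Among 26 genes of plasminogen activation and clotting, 4 rose (median 1.09): tissue factor F3, the plasminogen receptor subunit Anxa2, the thrombin receptor F2r and the anticoagulant Pros1. F2r, whose ligand protease Serpine2 inhibits, gave 2.00 on the log2 scale (SE 0.38, edgeR adjusted p = 0.0415). Of 27 inhibitors outside the serpins, Timp1 and Timp2 rose and Cst6 and Wfdc21 fell. Cst6 and Wfdc21 are epidermal genes, and Cst6 is also among the epidermis markers above. Of 29 epithelial serine proteases and cathepsins, Ctsk rose, and of 8 granule proteases none was called (0 by edgeR, median -1.53). After adrenalectomy edgeR called 0 of the 147 list genes in papilla cells, with 30 at an unadjusted p under 0.05 (all genes 11.7%) and 7 by DESeq2. Without ADX library 2 edgeR called 1, Col11a1.

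In hair follicle stem cells Serpinb5 was the most abundant serpin by TPM in all 10 libraries, and it passed no test. Its levels were 829 and 805 CPM in Sham, 966 and 1126 in ADX, 979 and 1024 with feeding, 709 and 950.1 in Control and 893 and 672 in GR KO. Both ADX libraries were thus above both Sham libraries, while Control and GR KO overlapped. Its log2 fold changes were 0.36 in ADX (SE 0.23, edgeR adjusted p = 0.494) and -0.08 in GR KO (SE 0.23, adjusted p = 0.946). Serpinb11, Serpinh1 and Serpinb8 came next by median TPM, with 247, 216 and 169.5 against 793 for Serpinb5. The chromosome 1 cluster to which Serpinb5, Serpinb11 and Serpinb8 belong also holds Serpinb2, Serpinb7, Serpinb10 and Serpinb12.

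After dermal GR deletion, stem cells had less Serpinb10 and Serpinb11, 2 members of that cluster. Serpinb10 (chr1:107529003-107549271, plus strand) encodes bomapin in blood cell precursors. It stood at 76.6 and 107 CPM in Control and at 21.3 and 14.9 in GR KO (log2 fold change -2.34, SE 0.38, edgeR adjusted p = 0.0327). Serpinb11 (chr1:107361198-107380475, plus strand) is an epithelial member whose protease targets are little known. It stood at 317 and 485 CPM in Control and at 166 and 122 in GR KO (-1.48, SE 0.26, edgeR adjusted p = 0.0327).

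For Serpinb11 the Control libraries were the highest of the 10 and the other groups stood at 210 and 213 CPM in Sham, 154 and 182 in ADX, and 210.4 and 279 with corticosterone feeding. Serpinb10 was likewise highest in Control, with 21.4 to 48.6 CPM in the 6 surgery libraries. In the annotation Serpinb10 shares 291 exonic bases with Serpinb2 on the same strand, but the exons listed in the deposited stem cell files do not overlap. Both calls were lost without Control library 2 (edgeR adjusted p = 0.161 and 0.196) or without GR KO library 2 (0.076 and 0.106). Without GR KO library 2 the test called 1 serpin, Serping1. In a fit of the 2 groups alone Serpinb10 was called and Serpinb11 was not (adjusted p = 0.0586).

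These 2 were the only calls among 32 serpins tested, where 0.985% of all 15231 genes were called and 0.315% fell. Of the 32 tested, 14 had both GR KO libraries below both Control libraries and 0 had both above, where the shares of all genes were 19.1% and 19.3%. The median log2 fold change of the 32 was -0.59, against 0.005 for all genes. The summed stem cell markers were lower as well, with 58592 and 64621 CPM in Control and 29736 and 40820 in GR KO, although 6 of the 16 were higher. Dermal fibroblast markers summed to 1579 and 2080.4 CPM in Control and 827 and 1084 in GR KO, with 2 of 14 higher. The relation of these markers to the serpins was not tested.

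Among the members that missed the threshold, Serpina12 (vaspin), an inhibitor of kallikrein 7, stood at 13.6 and 20.3 CPM in Control and 9.28 and 6.46 in GR KO (log2 fold change -1.11, SE 0.34, edgeR adjusted p = 0.16). Serping1 stood at 37.1 and 50.4 CPM in Control and 7.92 and 26.4 in GR KO (-1.35, SE 0.42, adjusted p = 0.162). Serpinb8 was at 361 and 352 CPM in Control and 245 and 228 in GR KO (-0.59, SE 0.20, adjusted p = 0.206). In each of the 3 the libraries of both groups were apart. Serpinb2 (-1.18, SE 0.45, edgeR adjusted p = 0.268), Serpine2 (-0.95, SE 0.44, adjusted p = 0.384) and Serpinb6a (-0.40, SE 0.20, adjusted p = 0.434) were also lower in both GR KO libraries than in both Control libraries.

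**Figure D5:**
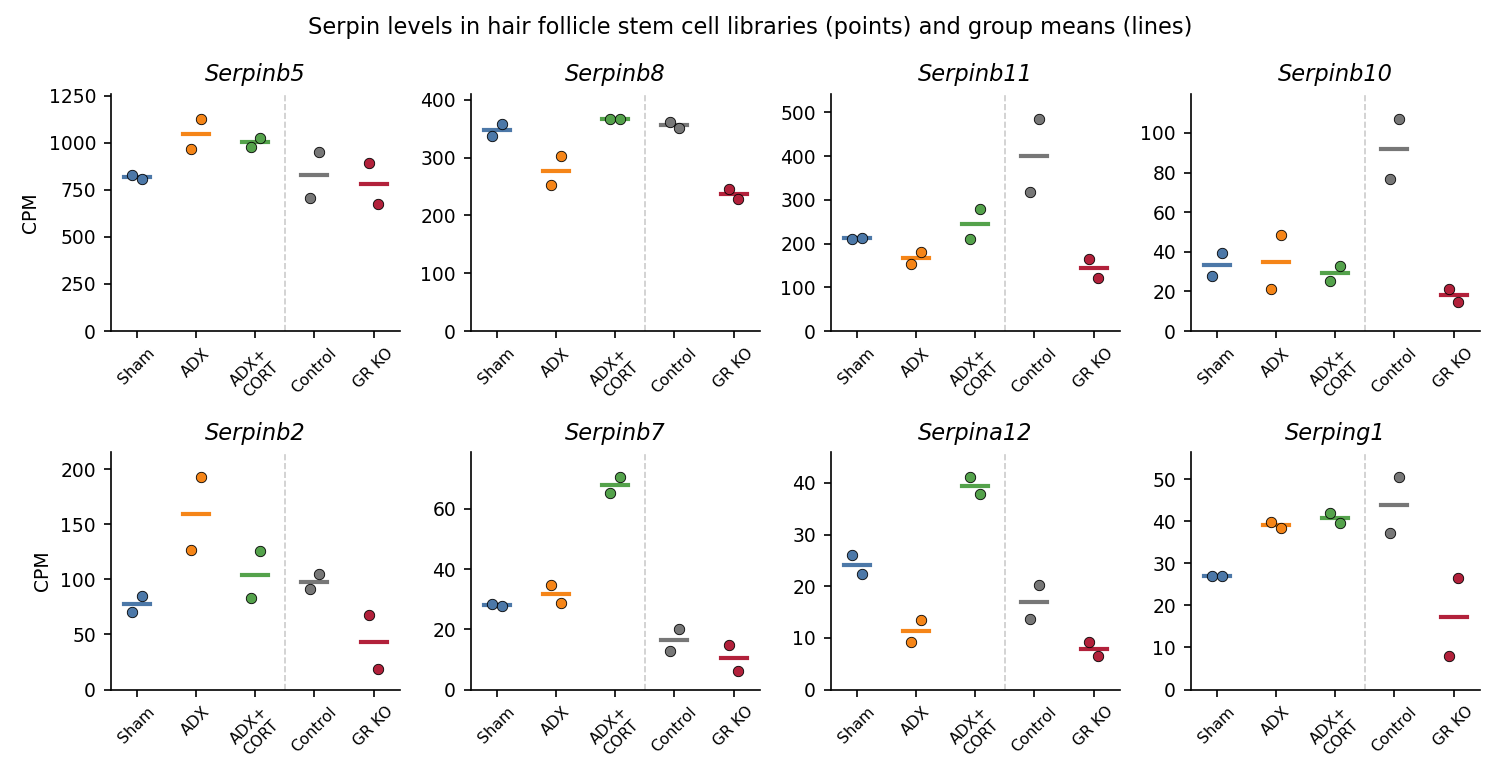
Levels of 8 serpins in hair follicle stem cells (y axis, CPM, from 0), with points for the 2 libraries of each group (x axis) and a line at the group mean. A dashed line parts the surgery and deletion experiments; Serpinb11 and Serpinb10 peak in Control (317 to 485 and 76.6 to 107 CPM), Serpinb7 and Serpina12 in ADX+CORT (65.4 to 70.4 and 37.8 to 41.1 CPM).

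After adrenalectomy, no serpin of 32 passed in stem cells (0 by edgeR), where 0.295% of all genes were called. An unadjusted p under 0.05 was reached by 5, against 15.2% of all genes, and DESeq2 called 2, Serpina3b and Serpina3j. Corticosterone feeding against adrenalectomy gave 0 serpins by edgeR, where 0% of all genes were called, 3 at an unadjusted p under 0.05 (all genes 19.3%) and 1 by DESeq2, Serpina12. Corticosterone feeding against Sham also gave 0 by edgeR, where 0% of all genes passed, 4 unadjusted (all genes 6.09%) and 0 by DESeq2.

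Serpina12 was low in ADX and high with feeding. It stood at 26.0 and 22.3 CPM in Sham, 9.14 and 13.5 in ADX, and 41.1 and 37.8 after feeding, so that the 3 groups did not overlap. Adrenalectomy gave a log2 fold change of -1.09 relative to Sham (SE 0.34, adjusted p = 0.149 by edgeR). Feeding gave 1.80 relative to ADX (SE 0.34, edgeR adjusted p = 0.0573) and 0.71 relative to Sham (SE 0.33, adjusted p = 0.806). These comparisons share libraries. Without ADX library 2 edgeR called Serpina12 and Serpina3n for feeding against ADX, and Serpina3n for ADX against Sham. The summed stem cell markers had a like order, with 58120 and 62012 CPM in Sham, 30883 and 42256 in ADX, and 57473 and 54996 with feeding. None of the 16 was higher in ADX than in Sham (median log2 fold change -0.53, 0 called by edgeR and 6 at an unadjusted p under 0.05), and 15 were higher with feeding than in ADX. Sebocyte markers, low throughout, summed to 139 and 139.8 CPM in Sham, 258 and 303 in ADX, and 174 and 453 with feeding. Differentiated epidermis markers summed to 9210 and 11556 CPM in Sham, 13065 and 15414 in ADX, and 12396 and 16498 with feeding. Of these 20, 15 were higher in ADX than in Sham (2 called by edgeR, Cst6 and Sprr1a) and 18 with feeding than in Sham (0 called). Immune markers summed to 101 and 139 CPM in Sham, 192 and 272 in ADX, and 109 and 212 with feeding. The part of any of these in the serpin levels was not tested.

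Serpinb7 was high with corticosterone feeding, at 65.4 and 70.4 CPM, against 28.5 and 27.6 in Sham and 34.7 and 28.8 in ADX. The log2 fold change was 1.10 against ADX (SE 0.36, edgeR adjusted p = 0.123) and 1.27 against Sham (SE 0.36, adjusted p = 0.559). Serpinb2 stood at 70.7 and 85.2 CPM in Sham, 127 and 192 in ADX, and 83.2 and 125 with feeding, so ADX was highest (1.04 against Sham, SE 0.45, edgeR adjusted p = 0.291). Serpinb8 was lowest in ADX, at 252 and 303 CPM, against 338 and 358 in Sham and 366 and 367 in ADX+CORT (-0.33 in ADX against Sham, SE 0.20, adjusted p = 0.464).

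Low members carried the larger fold changes. Serpina3b was at 0.587 and 1.55 CPM in Sham and at 4.08 and 35.2 in ADX (log2 fold change 4.22, SE 1.17, edgeR adjusted p = 0.118), and ADX+CORT, at 1.27 and 17.4, overlapped with both. Serpina3j was at 0 and 1.98 CPM in Sham, 7.66 and 9.71 in ADX, and 2.97 and 10.3 with feeding (3.16 in ADX, SE 1.16, adjusted p = 0.22). Serpinb6d was at 12.4 CPM in 1 ADX library and at 0 in the other. Copies of the Serpina3 and Serpinb6 clusters are alike, and reads that match several copies may be lost at the minimum mapping quality of 30. Serpinb3b was at 15.3 and 9.34 CPM in ADX+CORT and 2.67 to 6.79 in Sham and ADX (1.37 against ADX, SE 0.58, edgeR adjusted p = 0.215).

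The other stem cell serpins passed no test. Serpinh1 was at 289.8 and 239 CPM in Sham, 151 and 249.7 in ADX, 279 and 291 with feeding, 191 and 233 in Control and 101 and 182 in GR KO, and it was lower in both GR KO than in both Control libraries (log2 fold change -0.59, SE 0.30, edgeR adjusted p = 0.444). Serpinb6a was at 182 and 158 CPM in Sham, 200.1 and 227 in ADX, 177 and 191 with feeding, 193 and 229 in Control, and 163 and 156 in GR KO. Serping1 was at 27.0 and 26.9 CPM in Sham, 39.8 and 38.4 in ADX, and 42.0 and 39.6 with feeding. Serpine2 was at 15.98 and 17.1 CPM in Sham, 7.88 and 23.4 in ADX, 23.5 and 21.5 with feeding, 20.2 and 25.2 in Control, and 9.01 and 14.5 in GR KO. Serping1 was thus lower in Sham than in the other surgery groups, while Serpine2 overlapped between Sham and ADX.

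Of the Serpina3 cluster, Serpina3g was at 71.0 and 112 CPM in Sham, 31.8 and 77.3 in ADX, 58.4 and 76.8 with feeding, 145 and 274 in Control, and 194 and 74.2 in GR KO. Serpina3n was at 11.04 and 8.48 CPM in Sham, 0.141 and 7.96 in ADX, 4.404 and 5.27 with feeding, 17.4 and 32.8 in Control, and 9.24 and 33.7 in GR KO. In ADX, Serpina3n therefore differed widely between the libraries. Serpina3i ranged from 3.02 to 14.4 CPM and was lower in both libraries with feeding than in both Sham libraries. Serpina9, known from germinal centre B cells, overlapped in every comparison and ranged from 3.68 to 18.97 CPM. In the deletion libraries Serpina3b stood at 26.7 and 60.9 CPM in Control and 21.3 and 10.6 in GR KO. Serpina3j stood there at 6.18 and 7.99 CPM in Control and 5.87 and 1.84 in GR KO.

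Of clade B, Serpinb1a was at 33.8 and 32.8 CPM in Sham, 28.8 and 32.6 in ADX, 22.7 and 34.5 with feeding, 44.5 and 62.8 in Control, and 34.4 and 50.2 in GR KO. Serpinb9 was at 5.64 and 7.77 CPM in Sham, 9.56 and 10.003 in ADX, 11.99 and 3.47 with feeding, 15.7 and 16.9 in Control, and 11.5 and 13.4 in GR KO. In each of these genes only 1 surgery library, with feeding, exceeded the lowest deletion library, between experiments that differ in strain and immune markers. Serpinb12 ranged from 2.79 to 24.4 CPM and was higher in both libraries with feeding than in both ADX libraries. Serpinf1 ranged from 5.84 to 29.2 CPM and overlapped in every comparison. In the deletion libraries Serpinb2 stood at 90.9 and 105 CPM in Control and 67.7 and 18.3 in GR KO, and Serpinb7 at 12.8 and 19.9 CPM in Control and 14.7 and 6.30 in GR KO. Serpinb9 and Serpinb1a, the 2 genes that rose in GR KO papilla cells, gave log2 fold changes of -0.39 (SE 0.49, edgeR adjusted p = 0.83) and -0.34 (SE 0.29, adjusted p = 0.701) in GR KO stem cells. The difference between the GR KO and ADX effects in stem cells passed for 0 serpins by edgeR (0% of all genes), with 9 at an unadjusted p under 0.05 (all genes 10.6%) and 1 by DESeq2, Serpinb10. Without GR KO library 1 edgeR called 1, Serpinb2.

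Few proteases and other inhibitors were called in stem cells. In GR KO, where 0.985% of all genes were called, 2 of 30 epithelial serine proteases and cathepsins rose and 0 fell (median -0.02). They were the desquamation proteases Klk7, from 76.6 ± 34.8 to 354 ± 129 CPM (SD, n = 2, log2 fold change 2.21, edgeR adjusted p = 0.0327), and Klk8 (1.81, adjusted p = 0.0384). Klk7 is the protease that Serpina12 inhibits. Klk7 and Cst6 also belong to the 20 markers of differentiated epidermis, of which 14 were higher in GR KO stem cells (median 0.70, 11 at an unadjusted p under 0.05). In that list 4 rose and 1 fell by edgeR, namely Casp14, Cst6, Klk7, Lor and Sprr1a, and the summed levels overlapped, at 7482 and 10589 CPM in Control and 14435 and 8766 in GR KO. The part of epidermal RNA in these changes was not tested. Cst6, an inhibitor of cathepsins, rose in GR KO (1.84, edgeR adjusted p = 0.0327) and in ADX (1.93, adjusted p = 0.0393), and Timp3 rose in ADX (1.37, adjusted p = 0.0393). Of 26 collagen folding genes, Fkbp10 and P3h2 fell in GR KO (-1.49 each, edgeR adjusted p = 0.0327 and 0.0425). These 5 calls in GR KO fell to 0 without either Control library and to 3 without GR KO library 2. The 2 calls in ADX fell to 0 without ADX library 1 or Sham library 1, to 1 gene, C1qb, without Sham library 2, and rose to 5 without ADX library 2. Corticosterone feeding gave 0 calls among the 136 list genes by edgeR. Against ADX, 37 had an unadjusted p under 0.05 (all genes 19.3%) and DESeq2 called 15. Against Sham these numbers were 24 (all genes 6.09%) and 2. Without ADX library 2 the count against ADX was 8, and without Sham library 2 the count against Sham was 1, C1qb.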

How the data were processed

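RNA from sorted cells was made into cDNA with SMART-Seq v4 and into libraries with Nextera XT, per the labels' protocols, which do not mark strand. For dermal papilla cells the authors deposited estimated counts (expected counts) of transcripts. The submitters' processing notes name Salmon and mm10 for them. For stem cells the authors deposited whole-number counts per gene from featureCounts 1.6.1 at a minimum mapping quality of 30, per the file headers. Trim Galore 0.4.1 and STAR 2.5.3 are named for them in the submitters' processing notes, and DESeq2 1.22.2 for both.

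The 134967 papilla transcripts were summed to symbols with GENCODE M21 (150 had no match, at most 0.0752% of a library) and rounded. In 2 stem cell files, 27 gene names turned into dates were restored from their coordinates. Each cell type was fitted in edgeR 4.0.16 (R 4.3.3) with TMM scaling, a mean per group, the default filter and the quasi-likelihood test. Benjamini-Hochberg adjustment covered the 23463 papilla and 15231 stem cell genes tested, at 0.05. The biological coefficient of variation was 54% and 38.7%. CPM are relative to TMM-scaled libraries, and TPM were computed from transcript or gene length. Each SD is between the 2 libraries of a group. Each SE was derived from the quasi-likelihood test, which includes the spread between libraries. The edgeR fit and its test of GR KO against Control were run on simulated data for each cell type, with 200 genes changed. The other tests and the motif search were not. Members, lists and tests were chosen with earlier results of these data known. Members averaging 5 CPM or more in any group are given by library, or by range for a few, and per comparison those past the threshold plus up to 6 others of smallest p-value with full statistics. Statistics of further members, such as Serpinh1 and Serpinb8 in GR KO papilla cells, were added with their values known. Alternatives were a fit without each library, protein-coding genes only (papilla), no filter, the compared groups only, a block for the replicate number, median-of-ratios scaling and DESeq2 1.42.0; an arm left with 1 library was assumed to vary like the others. The motif search and the sequences are from RefSeq. The values of 1 member are not reported here.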

Additional observations from a re-analysis of the deposited data

Results flagged for a closer look

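For 3 serpins the effect of GR deletion and the effect of adrenalectomy in dermal papilla cells differed by the edgeR test of the difference itself. On the log2 scale the GR KO effect minus the ADX effect was 3.95 for Serpinb1a (effects of 2.45 and -1.50), 4.78 for Serpina3n (1.45 and -3.33) and 8.15 for Serpinb2 (3.31 and -4.84). Each gene was higher in 2 of 2 GR KO libraries and lower in 2 of 2 ADX libraries than in both libraries of its own control group. The Serpinb2 level in Sham rested on 1 library with 73.5 CPM beside 14.0 CPM in the other. Without Sham library 2 the differences were 3.70, 4.11 and 6.43, with edgeR adjusted p of 0.0822, 0.0824 and 0.103. The experiments also differed in strain and tamoxifen, which cannot be told apart from the treatments here.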

How the results depend on the processing

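Serpin calls depended on the tool, the filter and single libraries, and the cause was not tested. DESeq2 called 3 serpins for ADX and 7 for GR KO in papilla cells and 7 for their difference. In stem cells it called 2 for ADX against Sham, 1 for feeding against ADX, 4 for GR KO and 1 for the difference of the GR KO and ADX effects. With no filter on low counts edgeR called 7, 10 and 8 in papilla cells, and 4 (ADX), 2 (feeding against ADX), 3 (feeding against Sham), 6 (GR KO) and 6 (difference) in stem cells. A fit of only the compared groups called 1 in GR KO papilla cells and 1 in GR KO stem cells. Without each library in turn, the papilla counts ran from 0 to 0 for ADX, from 0 to 1 for GR KO and from 0 to 4 for the difference. The stem cell counts ran from 0 to 1 (ADX), 0 to 2 (feeding against ADX), 0 to 0 (feeding against Sham), 0 to 3 (GR KO) and 0 to 1 (difference). Serpinb6d in ADX stem cells turned from a log2 fold change of 5.59 to -4.28 without ADX library 2, the library that held its reads, and reached 9.89 without Sham library 1. Median-of-ratios scaling left 0, 2 and 2 serpins in papilla cells, and protein-coding genes alone gave 0, 3 and 3. Over all named serpins, called list genes and settings, 687 values kept direction and side of the threshold, 176 lost the threshold, 52 gained it and 1 reversed.

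The labels give no pairing for the replicate numbers. Differences between replicates 1 and 2 correlated at -0.186 (ADX with Sham) and 0.29 (GR KO with Control) in papilla cells and at -0.0415 to 0.0911 in stem cells. With the replicate number as a block the serpin counts were 0, 2 and 3 in papilla cells and 2 for GR KO in stem cells, with 0 in the other 4 comparisons, as without it. Called list genes for the papilla difference went from 7 to 11 and for ADX stem cells from 2 to 0.

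Counts over all genes varied more. For ADX, GR KO and their difference in papilla cells they were 4, 361 and 112 by edgeR, 470, 1376 and 1051 by DESeq2, 894, 1456 and 1305 with no filter, and 10, 470 and 196 with the block. Fits of the compared groups gave 0 and 142, and protein-coding genes 197 for the difference. In stem cells the counts for ADX, feeding against ADX, feeding against Sham, GR KO and the difference were 45, 0, 0, 150 and 0. DESeq2 gave 840, 1326, 61, 721 and 108, no filter 888, 1309, 184, 840 and 256. For ADX the block gave 9 and the compared groups alone 93, and for feeding against Sham the compared groups gave 2. Without each library in turn the all-gene counts ran in papilla cells from 1 to 12 (ADX), 19 (without Control library 2) to 226 (GR KO) and 3 (without Sham library 2 or Control library 2) to 221 (difference). In stem cells they ran from 0 (without Sham library 1) to 235 (without ADX library 2) for ADX, from 0 to 549 (without ADX library 2) for feeding against ADX, from 0 to 4 for feeding against Sham, from 5 (without Control library 2) to 336 (without GR KO library 1) for GR KO, and from 0 to 20 for the difference. The number of libraries, 2 per group, limits every test.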
